A study of Homo sapiens with 18 samples.

Results

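MEIS1, MEIS2, MEIS3, PBX2, PBX3 and PBX4 encode cofactors of the HOX proteins, and these 6 genes of the 57133 in the count table were taken by their symbols. In human induced pluripotent stem cells (iPSCs) with a knockout (KO) of PCGF6, the RNA of all 3 MEIS genes was higher than in wild-type (WT) cells, in both KO clones. MEIS3 rose from 16.4 ± 1.27 CPM (the count scaled to library size; SD, n = 2) in WT to 90.6 ± 5.00 CPM (n = 4) in PCGF6-KO. MEIS1 and MEIS2 went from at most 3 counts in a WT library to between 72 and 284 counts in a KO library. None of the 3 PBX genes passed both thresholds of the test, and PBX2 remained the gene with the highest level per length of the 6 in every library.

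MEIS and PBX proteins belong to the TALE class of homeodomain proteins, named for an extra loop of amino acids in the homeodomain. PBX proteins bind DNA together with HOX proteins and raise their selectivity for DNA sites, while MEIS proteins bind PBX and help to keep it in the nucleus. The family is known for its work with HOX proteins in patterning the body axis and the limbs, and MEIS genes are known from the heart, the limb bud, the hindbrain and blood progenitors. PCGF6 is the subunit that defines a variant Polycomb repressive complex, PRC1.6, which also holds the DNA-binding proteins MGA, MAX and E2F6.

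RNA-seq was performed on PGP1, an established human iPSC line, as WT and as 2 PCGF6-KO lines labelled KO_1 and KO_2, here clone 1 and clone 2, with 2 libraries each. The KO lines were made by CRISPR-Cas9 with a pair of gRNAs that target the first exon of PCGF6, and each is 1 clone that grew from a single cell and carries its own deletion. All lines were kept in mTeSR1 on Matrigel, and no differentiation step is named for these libraries, so that WT and KO share the line and the medium. The labels do not say whether the 2 libraries of a group came from separate cultures, so p-values measure the spread between these libraries, which may be technical.

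The libraries held between 15877396 and 18918609 counts. For PCGF6, the targeted gene, the WT libraries held 268 and 300 counts, those of clone 1 held 99 and 103, and those of clone 2 held 187 and 159, so its level was lower in every KO library than in every WT library. Its log2 fold change was −1.15 (SE 0.27) over both clones (adjusted p = 0.00914, quasi-likelihood test of edgeR, Benjamini-Hochberg adjustment), and it lost this call without WT replicate 1 (adjusted p = 0.0511) or without WT replicate 2 (adjusted p = 0.0763). Reads outside the deleted part still count towards the gene.

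A gene counted as called if its adjusted p was below 0.05 and its log2 fold change was beyond 0.6 in either direction. Of the 17672 genes tested, 23.6% were called between PCGF6-KO and WT, 14.9% higher and 8.70% lower. For clone 1 against WT 24.8% were called (16.0% higher and 8.80% lower), and for clone 2 against WT 29.4% (16.9% higher and 12.5% lower). All 6 MEIS and PBX genes passed the filter on low counts, but MEIS1 and MEIS2 passed it only through the KO libraries and therefore had to differ. Between PCGF6-KO and WT, 3 of the 6 were called, all higher, and for the reason just given this count is no evidence about the family. Both clones are compared with the same 2 WT libraries, and their values are given side by side. The comparison over both clones takes the 4 KO libraries as 1 group, although they come from only 2 clones. Its p-values, and SDs with n = 4, therefore treat libraries of the same clone as independent and do not measure the spread between clones alone.

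The 6 genes lie on 5 chromosomes of GRCh38. In GENCODE release 44, MEIS1 spans chr2:66433452-66573869 on the forward strand and MEIS2 chr15:36889204-37101299 on the reverse strand. MEIS3 spans chr19:47403124-47419527 and PBX4 chr19:19561707-19618693, both on the reverse strand. PBX2 spans chr6:32184733-32190202 on the reverse strand and PBX3 chr9:125747345-125967377 on the forward strand. An antisense RNA, MEIS1-AS2, and a few bases of MEIS1-AS3 share 13.3% of the exon bases of MEIS1, an antisense long non-coding RNA shares 3.62% of those of MEIS2, and a long non-coding RNA on the same strand shares 15.2% of those of PBX2. The strand setting of the counting is not given in the sources used here, so reads in these overlaps cannot be told apart.

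The 250 bases before the RefSeq start site are shown for 2 genes that were called higher, MEIS1 and MEIS3, and for PBX2, which was not, since these windows hold no annotated exon base. They are read on the gene's strand from GRCh38.p14 at chr2:66434875-66435124, chr19:47419528-47419777 and chr6:32190203-32190452, and CpG dinucleotides, the sites of DNA methylation, stand in capitals. The MEIS1 window lies inside the span that GENCODE gives the gene, downstream of its outermost start.
MEIS1: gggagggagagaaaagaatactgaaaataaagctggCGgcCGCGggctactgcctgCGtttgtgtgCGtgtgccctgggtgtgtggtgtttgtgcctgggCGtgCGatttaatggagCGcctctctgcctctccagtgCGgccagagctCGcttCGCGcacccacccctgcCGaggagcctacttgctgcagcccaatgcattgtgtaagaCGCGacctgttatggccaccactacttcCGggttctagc
MEIS3: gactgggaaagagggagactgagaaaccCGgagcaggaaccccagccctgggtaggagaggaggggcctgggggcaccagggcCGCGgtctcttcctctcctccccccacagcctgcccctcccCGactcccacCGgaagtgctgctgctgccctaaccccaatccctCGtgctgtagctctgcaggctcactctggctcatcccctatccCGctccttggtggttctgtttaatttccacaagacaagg
PBX2: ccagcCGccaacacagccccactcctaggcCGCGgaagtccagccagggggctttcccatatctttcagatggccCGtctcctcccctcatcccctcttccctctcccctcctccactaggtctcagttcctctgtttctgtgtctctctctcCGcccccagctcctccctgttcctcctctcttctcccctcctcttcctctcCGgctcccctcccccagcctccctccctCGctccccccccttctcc
MEIS1 had 16 CpG dinucleotides in its window, while MEIS3 and PBX2 had 7 each, so that a gene called higher and a gene not called had the same number. The median over the 35116 start-site windows of 27305 genes was 11. Of the genes whose windows are not printed, PBX3 had 36 CpG dinucleotides and PBX4 had 30, 2 windows of MEIS2 had 26 and 13, and a farther window of MEIS3 had 9. The 8 windows of the 6 genes were searched on both strands for 5 short motifs. The E-box CACGTG, which MAX and MGA are known to bind, was in none of the 8 windows and in 6.34% of all windows, and the E2F-type motif GCGGGAA was in none and in 5.52%. TGACAG, the motif of MEIS proteins, was in the PBX3 window and in 13.03% of all windows. The PBX-HOX motif TGATTTA was in 1 window of MEIS2 and in 2.59% of all windows, and the related TGATTGA, which shares its first 5 letters, was in none and in 1.79%. A match here is only a run of letters, and other parts of the genes were not searched.

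MEIS3 was the MEIS gene with the most RNA in WT. The WT libraries held 281 and 258 of its counts, the clone 1 libraries 1836 and 1591, and the clone 2 libraries 1695 and 1369. As CPM scaled by the TMM method, WT stood at 17.3 and 15.5, clone 1 at 96.0 and 87.5, and clone 2 at 93.5 and 85.3. The lowest KO library was far above the highest WT library, while the libraries of the 2 clones overlapped. In bulk RNA, a change in the number of cells of a type and a change in RNA per cell cannot be told apart, here and for the genes that follow. Over both clones the log2 fold change was 2.47 (SE 0.09, adjusted p = 3.04e-07, edgeR), which is 5.54-fold. It was 2.49 in clone 1 (SE 0.09, adjusted p = 4.12e-18) and 2.45 in clone 2 (SE 0.09, adjusted p = 4.72e-18). Between the clones the log2 difference, clone 2 minus clone 1, was −0.04 with a 95% interval from −0.19 to 0.12 (adjusted p = 0.789). Its sign turned without clone 1 replicate 1 and without clone 2 replicate 2.

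MEIS2, known from the developing limb, heart and palate, was close to absent from WT. The WT libraries held 0 and 3 counts, the clone 1 libraries 211 and 205, and the clone 2 libraries 284 and 276. In CPM, the WT libraries were at 0 and 0.180, clone 1 at 11.0 and 11.3, and clone 2 at 15.7 and 17.2. None of the 3 groups overlapped, and clone 2 stood above clone 1. From the summed counts, the level in clone 1 was 123 times that in WT, with an exact 95% counting interval from 41.7 to 597, and in clone 2 it was 180 times, from 61.3 to 876. These intervals cover counting error only. Over both clones the fitted log2 fold change was 7.13 (SE 0.52, adjusted p = 1.2e-05, edgeR), but its size rests on the few WT counts, since it was 6.20 without WT replicate 1 and 10.92 without WT replicate 2. In clone 1 it ranged from 5.90 to 10.62 and in clone 2 from 6.46 to 11.16 when 1 library was left out, and the call held each time.

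MEIS1, a partner of HOXA9 in blood progenitors and leukaemia, had 2 counts in each WT library, while the clone 1 libraries held 72 and 97 and the clone 2 libraries 154 and 151. In CPM, WT was at 0.123 and 0.120, clone 1 at 3.77 and 5.34, and clone 2 at 8.49 and 9.41. As for MEIS2, the groups did not overlap and clone 2 was the highest. The ratio to WT from the summed counts was 37.3 in clone 1 (95% counting interval from 14.3 to 139) and 73.6 in clone 2 (from 28.4 to 272). Over both clones the fitted log2 fold change was 5.71 (SE 0.63, adjusted p = 0.000137, edgeR), and it was 5.14 in clone 1 (SE 0.42) and 6.12 in clone 2 (SE 0.37). With each library left out in turn, it stayed between 5.52 and 5.92 over both clones.

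**Figure D1:**
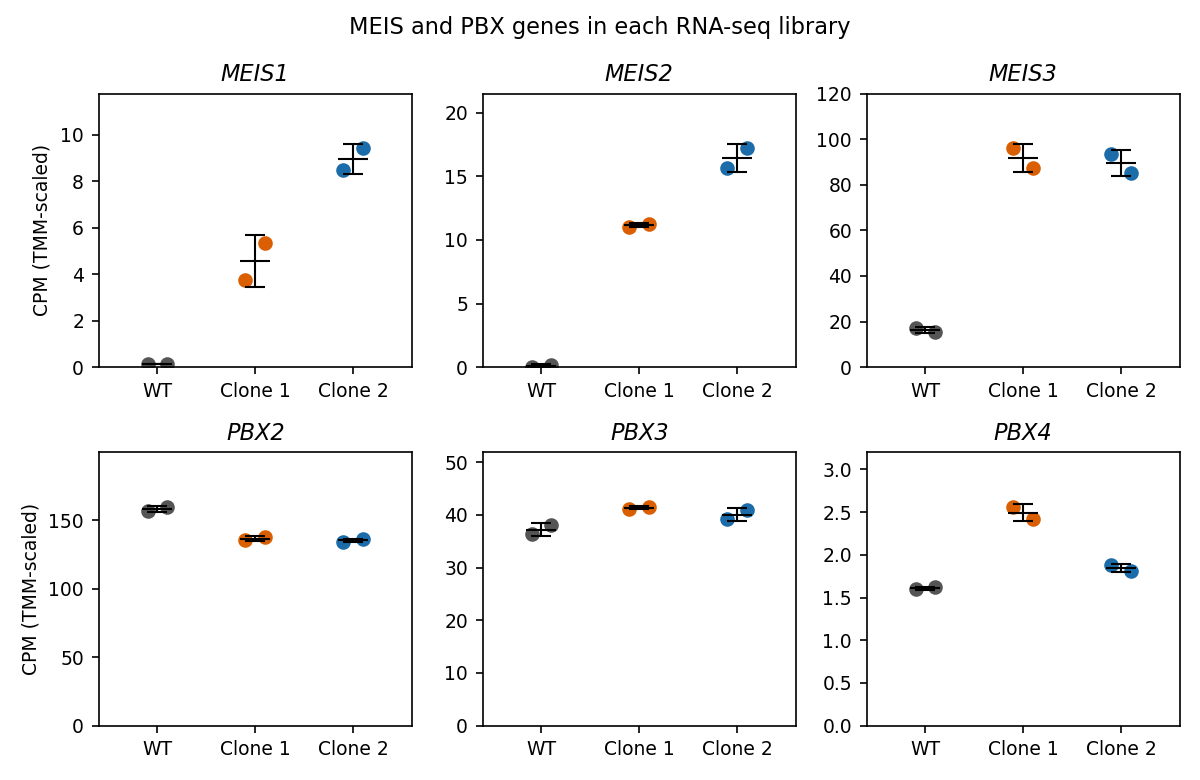
Level of each MEIS and PBX gene in each library, as TMM-scaled CPM on a linear axis that starts at 0 and has its own range for each gene. Points are libraries, bars are the mean and SD of 2 libraries, and all KO libraries of MEIS1, MEIS2 and MEIS3 sit above both WT libraries while PBX2 sits between 134 and 138 in KO and at 157 and 160 in WT.

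The clones differed in MEIS1 by both thresholds and in MEIS2 by the adjusted p alone. Of all tested genes, 7.87% were called between clone 2 and clone 1, 3.73% higher and 4.14% lower in clone 2, and MEIS1 was the 1 called gene of the 6. MEIS1 was 1.97-fold higher in clone 2 (log2 difference 0.98, SE 0.18, 95% interval of the fold from 1.52 to 2.56, adjusted p = 0.000309, edgeR). MEIS2 was 1.47-fold higher, with a log2 difference of 0.56 (SE 0.14, 95% interval from 0.27 to 0.84) and an adjusted p of 0.00449, but it was under the fold change threshold. Both differences depend on where the threshold is put. MEIS1 was not called in a test against a fold change of 1.5 (adjusted p = 0.165), and MEIS2 was called without clone 2 replicate 1, with a log2 difference of 0.62. The 95% interval of the log2 difference ran from −0.14 to 0.11 for PBX2, from −0.22 to 0.13 for PBX3 and from −0.99 to 0.13 for PBX4. PCGF6 itself was also higher in clone 2 than in clone 1, by 0.90 on the log2 scale (adjusted p = 5.44e-05). Like MEIS1, it was not called in the edgeR test against a fold change of 1.5 (adjusted p = 0.157).

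PBX2 is expressed in most cell types, and it was the most abundant of the 3 PBX genes in WT. The WT libraries held 2550 and 2665 of its counts, the clone 1 libraries 2585 and 2503, and the clone 2 libraries 2434 and 2181. This is 157 and 160 CPM for WT, 135 and 138 for clone 1 and 134 and 136 for clone 2, so that all KO libraries were lower than both WT libraries. The difference was small beside those of the MEIS genes. The log2 fold change was −0.22 (SE 0.05, 95% interval from −0.34 to −0.10), with an adjusted p of 0.0124 by edgeR, and it was under the fold change threshold. Clone 1 gave −0.21 (adjusted p = 0.0053) and clone 2 gave −0.23 (adjusted p = 0.00278), so the adjusted p alone would have called it in each comparison with WT. Over both clones, that call needed both WT libraries. The log2 fold change was −0.24 without WT replicate 1 and −0.20 without WT replicate 2.

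PBX3, which is expressed in the nervous system and in leukaemias with high HOX levels, had 591 and 636 counts in the WT libraries, 787 and 755 in those of clone 1, and 710 and 656 in those of clone 2. In CPM, WT stood at 36.3 and 38.1, clone 1 at 41.2 and 41.5, and clone 2 at 39.2 and 40.9. The KO libraries were above the WT libraries by a narrow margin. The log2 fold change was 0.13 with a 95% interval from −0.04 to 0.29 (adjusted p = 0.196, edgeR), whose upper end is 1.23-fold.

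PBX4, known mainly from the testis, had the lowest level of these 3 genes. The WT libraries held 26 and 27 counts, the clone 1 libraries 49 and 44, and the clone 2 libraries 34 and 29. In CPM, WT averaged 1.61, while clone 1 stood at 2.56 and 2.42, and clone 2 at 1.88 and 1.81. The groups did not overlap, with clone 1 the highest and clone 2 between. In clone 1 the log2 fold change was 0.63 (SE 0.28, 95% interval from 0.05 to 1.21), with an adjusted p of 0.0700 by edgeR. With only genes of at least 10 counts in every library tested, it was 0.65 and passed (adjusted p = 0.0439). In clone 2 it was 0.20 with an interval from −0.42 to 0.81 (adjusted p = 0.616), whose upper end is 1.76-fold, so that a change as large as that in clone 1 could not be told from none at these counts.

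**Figure D2:**
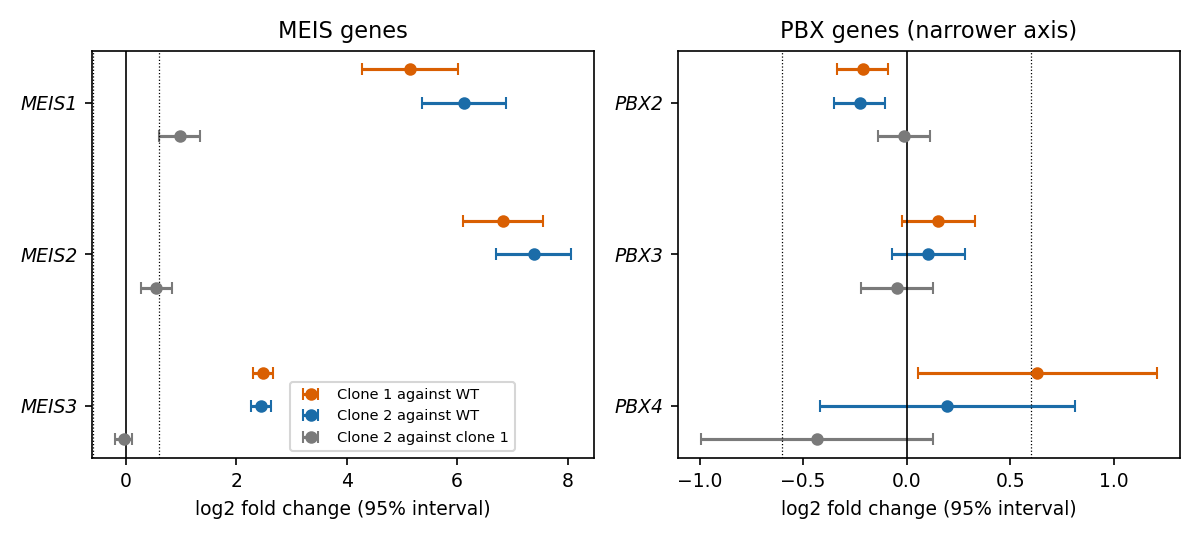
Fitted log2 fold change of each gene in clone 1 against WT, clone 2 against WT and clone 2 against clone 1, with 95% intervals from edgeR and dotted lines at the fold change threshold of 0.6. The MEIS genes lie between 2.45 and 7.39 against WT, and the PBX genes, on a narrower axis, between −0.23 and 0.63.

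Against all tested genes, which had a median log2 fold change of 0.00 over both clones, MEIS2 stood at percentile 99.3, MEIS1 at 98.7 and MEIS3 at 94.9. PBX4 stood at percentile 76.4, PBX3 at 61.0 and PBX2 at 28.6, all inside the bulk of the genes. The order of MEIS2, MEIS1 and MEIS3 was the same in each clone. Both clones share the WT libraries, which held 3 counts of MEIS2 and 4 of MEIS1 in all. The counting intervals of these 2 genes overlapped in each clone, so their order is uncertain. MEIS1 and MEIS2 passed the filter only through the KO libraries, so their high percentiles are no evidence by themselves.

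**Figure D3:**
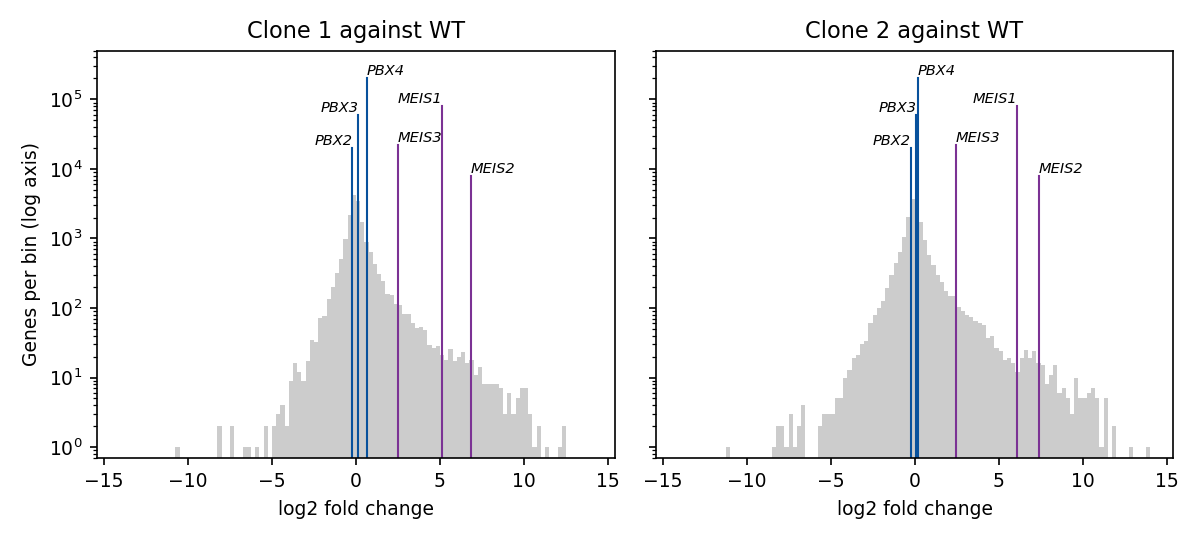
Distribution of the log2 fold changes of 17672 tested genes in each clone against WT, as genes per bin on a log axis, with a line at the value of each MEIS and PBX gene. The height of a line has no meaning, and the MEIS lines stand in the right tail while the PBX lines stand near the peak. MEIS1 and MEIS2 passed the filter only through the KO libraries.

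Levels of different genes were compared as CPM per kilobase of the gene length deposited with the counts. In WT the order was PBX2 (36.4 ± 0.50, n = 2), PBX3 (8.21 ± 0.28), MEIS3 (3.19 ± 0.25) and PBX4 (0.629 ± 0.006), with MEIS1 and MEIS2 near 0.01 and overlapping. In PCGF6-KO the order was PBX2 (31.3 ± 0.34, n = 4), MEIS3 (17.7 ± 0.98), PBX3 (8.98 ± 0.23), MEIS2 (1.28 ± 0.29), PBX4 (0.848 ± 0.15) and MEIS1 (0.617 ± 0.24). MEIS3 thus stood below PBX3 in both WT libraries and above it in all 4 KO libraries. PBX4 and MEIS1 overlapped over the 4 KO libraries, since PBX4 was above MEIS1 in clone 1 and below it in clone 2. Among all tested genes, MEIS3 moved from percentile 51.4 of the per-length level in WT to 85.1 in clone 1 and 84.3 in clone 2, while MEIS1 in clone 2 was still only at percentile 25.0 and MEIS2 at 35.7.

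The summed per-length level of MEIS1, MEIS2 and MEIS3 was 3.05 and 3.38 CPM per kilobase in WT and between 18.6 and 20.5 in the 4 KO libraries. MEIS3 made up 99.4% of this sum in WT, 92.5% in clone 1 and 88.1% in clone 2, so most MEIS RNA was MEIS3 in every library. Without division by length, its mean share in PCGF6-KO was 81.6% in place of 90.3%. The sum of PBX2, PBX3 and PBX4 was between 44.7 and 45.8 CPM per kilobase in WT and between 40.3 and 41.8 in KO. The MEIS sum was therefore 0.0756 and 0.0665 times the PBX sum in WT, and between 0.445 and 0.508 times in KO. PBX2 made up 80.5% of its sum in WT, 75.7% in clone 1 and 76.5% in clone 2.

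**Figure D4:**
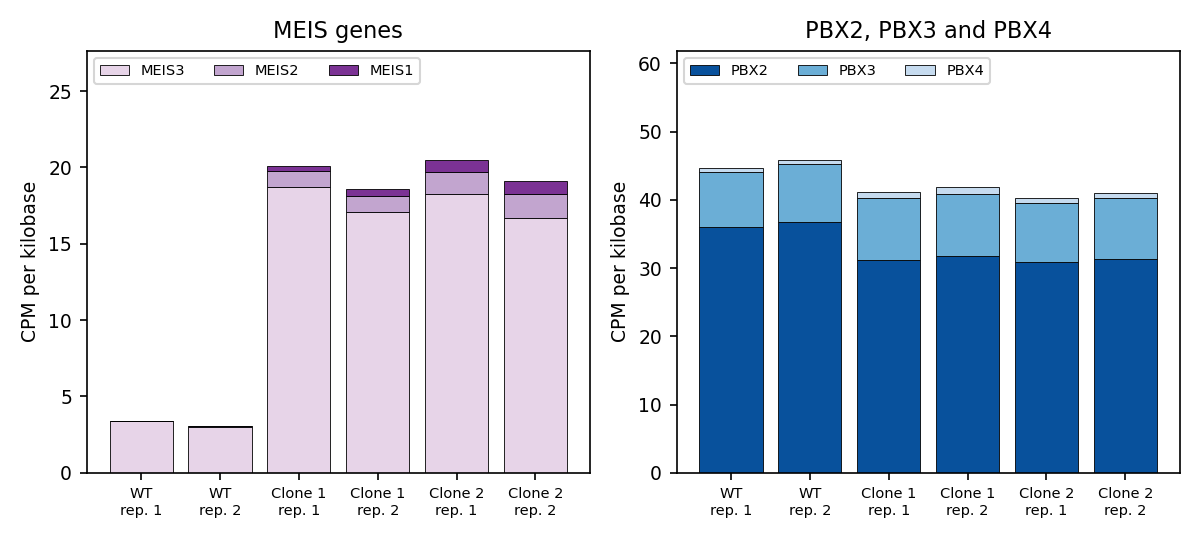
Stacked per-length levels in each library, as CPM per kilobase, of the MEIS genes (left) and of PBX2, PBX3 and PBX4 (right), on linear axes that start at 0 and differ in range. The MEIS bars are near 3 in WT and near 20 in KO and are mostly MEIS3, and the PBX bars are mostly PBX2 in every library.

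PKNOX1, PKNOX2, TGIF1, TGIF2 and MKX, which also encode TALE proteins, were measured beside them. Of these 5, 2 were called higher in PCGF6-KO and 3 were not called, beside 14.9% of all tested genes called higher, and their median log2 fold change was −0.07 beside 0.00 over all genes. PKNOX2, a relative of the MEIS genes, was higher with a log2 fold change of 1.22 (adjusted p = 0.0038, edgeR), and MKX, a regulator of tendon development, with 1.06 (adjusted p = 0.0123). MKX lost its call without WT replicate 1 (adjusted p = 0.121). PKNOX1, at −0.43, and TGIF2, at −0.26, passed the adjusted p but not the fold change threshold.

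The HOX genes, which encode the partners of PBX and MEIS proteins, were close to silent in WT, with 16 and 6 counts over all 39 genes. Of the 39, 33 passed the filter, all of them called higher in PCGF6-KO and in each clone, beside 14.9% of all genes, but 25 of the 33 had no count in WT and passed only through the KO libraries. Their median log2 fold change was 9.10, and 5.94 with those 25 genes set at their lower bound against 3 counts over both WT libraries. HOXC6 was at least 237-fold higher and HOXB2 at least 211-fold higher by that bound. The summed HOX level was 112 and 116 CPM per kilobase in clone 1 and 160 and 151 in clone 2, that is between 5.59 and 7.89 times the MEIS sum of the same library. Homeobox genes outside the HOX clusters whose proteins also bind PBX, namely PDX1, EN1, EN2, TLX1, TLX2 and TLX3, had at most 8 counts in a library, and none of the 6 passed the filter.

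Retinoic acid is known to raise MEIS expression in several cell types, and genes that bind, degrade or sense it were listed with PBXIP1, whose protein binds PBX. Of these 7 genes, 3 were called higher, 1 lower and 3 not, beside 14.9% higher and 8.70% lower over all tested genes. Clone 1 had 0 of the 7 called lower against WT and clone 2 had 2, beside 8.80% and 12.5% of all tested genes. CRABP2, a retinoic acid binding protein, had 1131 and 1344 counts in WT and between 4846 and 6335 in KO, a log2 fold change of 2.11 (adjusted p = 4.37e-07, edgeR). CYP26A1, which degrades retinoic acid, had 10 and 16 counts in WT and between 108 and 211 in KO, a log2 fold change of 3.53 (adjusted p = 3.53e-05). The calls of RARB, at 1.97 (adjusted p = 0.0315), and CRABP1, at −0.62 (adjusted p = 0.0472), were weaker. RARB lost its call without either WT library or either clone 2 library, and so did CRABP1. Against WT, CRABP1 was called lower in clone 2 (log2 fold change −1.02) but not in clone 1 (−0.31). RARG, at −0.53 over both clones and without a call, was called lower in clone 2 (−0.75, adjusted p = 2.8e-08, edgeR) but not in clone 1 (−0.34). The part of retinoic acid in the MEIS result was not tested.

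Copies and RNAs named after the 6 genes had few counts. The pseudogene MEIS3P1 had 57 and 61 counts in the WT libraries, 109 and 117 in those of clone 1, and 107 and 80 in those of clone 2, with a log2 fold change of 0.69 (adjusted p = 0.0162, edgeR). It lost this call without WT replicate 1 (adjusted p = 0.114) or without WT replicate 2 (adjusted p = 0.0932). MEIS3P2 was not called, with 40 and 37 counts in WT and between 52 and 62 in KO. How reads that match both MEIS3 and these copies were counted is not given in the sources used here. MEIS1-AS3 had 7 counts in clone 2 replicate 1 and at most 1 in the other libraries, MEIS1-AS2 had 1 count in all, and PBX2P1 had between 2 and 4 counts in each library.

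For each of the 6 genes, the 5 genes with the most similar pattern over the 6 libraries were found by the root mean square difference of log2 CPM, after each gene was centred on its mean, among 15867 tested genes whose symbol is not a clone name. MEIS1 was closest to RGS1 (0.13), HOXD10 (0.17), FAM20A (0.19), SRPX2 (0.19) and PMP22 (0.19). RGS1, HOXD10 and SRPX2 had no count in WT, and all of these genes were higher in both clone 2 libraries than in both clone 1 libraries in counts. At so few WT counts, log2 CPM in WT is set largely by the prior count of 2, so this part of the likeness is uncertain. The fitted log2 fold changes were 8.86 for RGS1, 9.08 for HOXD10, 8.44 for SRPX2, 4.86 for FAM20A and 4.77 for PMP22, beside 5.71 for MEIS1. MEIS2 was closest to CDKN2B (0.23), CYP1B1 (0.24), ZEB2 (0.29), PRRX1 (0.30) and LEF1 (0.31), and MEIS3 to COL2A1 (0.07), BTG2, IFITM1, VAMP5 and DLK1. PBX2 was closest to ISG20L2 (0.02), ICMT, LRPPRC and PGAP2. PBX3 was closest to RAB5B (0.01), FAM214A, DLG1, RPN2 and ARID3B, and PBX4 to APBA2 (0.04), FUCA2, GGCX, FAM184A and TCTA, whose log2 fold changes against WT lay between 0.29 and 0.43. These are likenesses over 6 libraries that share their scaling, and are given as a description.

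Markers of the cells that an iPSC culture can hold were measured beside the MEIS genes, and they did not all move the same way. Their counts stand beside the 14.9% of all tested genes called higher and the 8.70% called lower in PCGF6-KO. Of 8 pluripotency markers, POU5F1, NANOG and 3 others were not called, and SOX2, DNMT3B and ZFP42 were the 3 called lower. By clone, SOX2 was called lower in clone 2 (log2 fold change −1.04) but not in clone 1 (−0.41), while DNMT3B and ZFP42 were called in each. The sum of the 8 was between 7961 and 8305 CPM in WT and between 5497 and 6187 in KO. DNMT3B had the largest drop in this sum (3020 CPM in WT and 1367 in KO), and LIN28A and DPPA4 were lower without a call. POU5F1 was level (1495 and 1508 CPM), as was TDGF1, and NANOG was higher without a call (131 and 173 CPM). All 6 markers of primitive streak and presomitic mesoderm were called higher, from a sum of 6.71 and 6.94 CPM in WT to 618 and 620 for clone 1 and 743 and 753 for clone 2. All 8 markers of lateral and cardiac mesoderm were called higher, from 6.65 and 7.98 CPM in WT to 120 and 128 for clone 1 and 218 and 245 for clone 2, and all 5 endoderm markers from 12.2 and 13.2 CPM to 118 and 127 for clone 1 and 152 in each clone 2 library. These 3 sums, like MEIS1 and MEIS2, were higher in clone 2 than in clone 1, but not every marker was. Against clone 1, 3 of the 6, 5 of the 8 and 2 of the 5 markers were called higher, beside 3.73% of all tested genes. EOMES and MYL7 were lower in clone 2, EOMES at 95.9 CPM against 138 in clone 1, and neither was called. Of the mesenchyme markers, 5 of 6 were higher and 1 lower (733 and 749 CPM, between 1289 and 1398). Of 6 neuroectoderm markers, 5 were tested, and 3 were higher and 1 lower (350 and 396 CPM, between 626 and 743), and of 6 blood and endothelial markers, 4 were tested, and 2 were higher and 1 lower (154 and 154 CPM, between 469 and 506). Most of the neuroectoderm sum was NES (299.7 CPM in WT and 647 in KO), while OTX2 was called lower, and most of the blood and endothelial sum was KDR (149 and 477 CPM), while CDH5 was called lower. MSGN1, HAND1, HAND2, TBX20, NKX2-5, SOX17, LUM and DCN had no count in WT. They passed the filter only through the KO libraries and could only be called higher, as could GATA4, with 5 and 0 counts in WT, and other markers with few WT counts, so the number of markers called higher is no evidence by itself. The blood marker PTPRC had at most 3 counts in any library. The part of these cell types in the MEIS result was not tested.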

How the data were processed

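RNA-seq libraries of WT PGP1 iPSCs and of 2 PCGF6-KO clones, 2 each, were used. The authors removed adapters (Trim Galore 0.6.2), mapped to GRCh38 (HISAT2 2.1.0) and deposited raw featureCounts counts per gene beside the gene length. Which annotation release was used, and how strand and multi-mapped reads were treated, is not given in the sources used here. ChIP-seq was not analysed here.

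From these counts, edgeR (4.0.16, limma 3.58.1, R 4.3.3) filterByExpr on the genotypes kept 17672 of 57133 genes. After TMM scaling, glmQLFit and glmQLFTest compared the 4 KO with the 2 WT libraries, and a second fit on WT, clone 1 and clone 2 compared these groups pairwise. Calls needed a Benjamini-Hochberg adjusted p under 0.05 over all tested genes and a log2 fold change beyond 0.6 in either direction, the thresholds of the study's methods. Log2 CPM for likeness used a prior count of 2, and counting intervals are exact at 95%. Promoter windows are from RefSeq, with Python 3.11.15. The 6 genes and the gene lists were chosen with earlier results of these data known. Some genes that these rules name are not reported here. All 6 are described, with called members of the lists, at most 8 a list by absolute log2 fold change, and the 5 nearest genes of each. PCGF6 served as the check of the labels.

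As alternatives, the comparisons were run in DESeq2 (1.42.0), with RLE or upper-quartile scaling, with no filter, at least 10 counts in every library, adjusted p alone, a test against a fold change of 1.5, the replicate number as a block, a contrast of the mean clone, fits of the compared groups alone, and each library left out.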

Additional observations from a re-analysis of the deposited data

Results flagged for a closer look

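MEIS1 and MEIS2 differed between the clones by a direct test of the difference. Clone 2 minus clone 1 was 0.976711 on the log2 scale for MEIS1 and 0.556801 for MEIS2 (edgeR adjusted p = 0.000309 and 0.00449), and both clone 2 libraries were above both clone 1 libraries for each gene. PCGF6 differed in the same direction, by 0.90. Neither MEIS1 nor PCGF6 was called between the clones in the test against a fold change of 1.5.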

How the results depend on the processing

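With 2 libraries per group and at most 3 counts of MEIS1 and MEIS2 in a WT library, the size of their increase is known only within wide limits. Of 352 values of the 6 genes under the alternatives, 343 kept their direction and their side of the thresholds. With at least 10 counts in every library MEIS1 and MEIS2 were not tested, and 1 of the 6 genes was called in PCGF6-KO against WT, 1 in clone 2 against WT and 0 in clone 2 against clone 1. Between the clones, 2 genes were called by the adjusted p alone, 0 in the test against a fold change of 1.5, and between 1 and 2 with each library left out. The log2 difference of MEIS3 between the clones was between −0.11 and 0.035 with each library left out, above 0 without clone 1 replicate 1 (0.035) and without clone 2 replicate 2 (0.027), and the cause was not tested. Of the 5 other TALE genes, the number higher was 1 in the test against a fold change of 1.5 in PCGF6-KO and in clone 1, 1 in clone 1 with DESeq2, and between 1 and 2 with each library left out. The number lower was 2 by the adjusted p alone in PCGF6-KO and in each clone. The MEIS3 share without division by length was 81.6%. The differences between replicate 2 and replicate 1 were weakly and positively correlated in each pair of groups. Over 13633 genes, Pearson's r was 0.07 for WT and clone 1, 0.08 for WT and clone 2, and 0.19 for the 2 clones. Spearman's rho was 0.15, 0.13 and 0.27 in the same order. Whether samples of one replicate number share a batch is not stated in the labels and was not tested. In fits that took this number as a block, 3 of the 6 genes were called in PCGF6-KO against WT, with MEIS3 at 2.47, and no call among the 6 changed, while RARB (adjusted p = 0.0646) and CRABP1 (adjusted p = 0.0889) lost theirs.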
